A study of Sus scrofa with 8 samples.

Results

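The genes described here are the antioxidant and redox defense genes of the pig heart, a set of enzymes, carrier proteins and regulators chosen by gene symbol. Of 54 symbols asked for, 49 were present in the expression table on 51 of its 18975 gene rows, because KEAP1 and AOX1 each had 2 rows. GLRX2, GPX1, GSTP1, MGST1 and SRXN1 were not listed under these symbols and were not analysed here. The samples were hearts of male pigs aged 6 months in 4 groups, namely Tibetan pigs of the highland (TH), Tibetan pigs of the lowland (TL), Yorkshire pigs of the highland (YH) and Yorkshire pigs of the lowland (YL). The Yorkshire is a commercial lowland breed. Each group had 2 RNA-seq libraries, and each library was a pool of RNA from 4 pigs, so the spread between libraries reflects pools rather than single animals.

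Reactive oxygen species leak from the respiratory chain and from oxidases, and the heart, rich in mitochondria, produces them continuously. Superoxide dismutases turn superoxide into hydrogen peroxide, which catalase, the glutathione peroxidases and the peroxiredoxins then remove. Thioredoxin, glutaredoxins and glutathione return these enzymes and other oxidized proteins to the reduced state, ferritin keeps iron from driving radical formation, and the transcription factor NRF2, encoded by NFE2L2 and held back by KEAP1, switches on many of the genes.

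Levels are given as FPKM, the fragments on a gene scaled by transcript length and by the mapped fragments of the library. Reads on genes ranged from 15687000 to 26723000 per library. The libraries YL2 and TH1 stood apart from the rest. In YL2 the 15 kidney marker rows summed to 4980 FPKM, against 0.733 to 17.5 FPKM in the other 7 libraries, all 15 were more than 2 times above every other library, and the ventricular muscle markers summed to 16600 FPKM, against 26200 to 44200 FPKM elsewhere. UMOD, a gene of the kidney tubule, was at 947 FPKM in YL2 and at 0 in 6 of the other 7. The descriptions of both YL samples also name the file of TL, and they were taken as YL by their titles, breed and column names. The comparisons with YL are therefore given with and without YL2. TH1 had the highest FPKM sum, at 8559100 against 1563940 to 4017850 in the others, of which mitochondrially encoded genes took 87.6% (57.7 to 80.3% in the others). The endothelial markers summed to 143 FPKM in TH1, within the 74.3 to 164 FPKM of the others, but the single genes went both ways. VWF (1.07 FPKM in TH1 against 6.42 to 25.9 elsewhere), TEK and KDR were lowest in TH1, while PECAM1 (96.8 FPKM) and CLDN5 (32.7 FPKM) were highest there. The fibroblast markers summed to 198 FPKM in TH1 and 695 in TH2 (228 to 811 elsewhere). The differences of TH are therefore also given without TH1, and the part of these values in them was not tested. By summed level, both TH libraries were above the rest in atrial markers (5380 to 6610 FPKM against 397 to 2610) and in erythroid markers (1640 to 3120 against 533 to 1410). Their smooth muscle sum was also higher (6060 to 9450 against 1000 to 3600), but it was mostly DES, which heart muscle also expresses. CNN1 and TAGLN were highest in TH as well, while MYH11 was lowest in TH1 (0.388 FPKM). Their macrophage sum was lower (41.9 to 57.4 against 70.0 to 118), mainly through C1QA and C1QC. CD68 did not share this, at 5.39 and 5.95 FPKM in TH against 2.18 to 6.43 elsewhere. The part of these cell types in the differences of TH was not tested, and in a bulk sample fewer cells of a type cannot be told apart from less RNA per cell.

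By mean over the 8 libraries, 12 of the 51 rows were at 100 FPKM or more (23.5%, against 3.33% of all genes in the table), 22 between 10 and 100, 14 between 1 and 10 and 3 under 1. Without YL2 there were 11 at 100 FPKM or more (21.6%, against 3.37%), since the mean of CAT was 61.8 FPKM rather than 140. FTH1, the heavy chain of ferritin with ferroxidase activity, came first at a mean of 2100 FPKM, ranging from 1370 FPKM in YH1 to 3370 FPKM in TH1. GPX3, the secreted glutathione peroxidase, had a mean of 1040 FPKM, but this mean rested on YL2, and the other 7 libraries lay between 56.9 and 261 FPKM. The same held for the ferritin light chain FTL, at 397 to 615 FPKM outside YL2. Next by mean came the cytosolic peroxiredoxin PRDX2 at 270 FPKM, the microsomal glutathione transferase MGST3 at 243, the copper and zinc superoxide dismutase SOD1 at 208, the metallothionein MT3 at 195, the mitochondrial peroxiredoxin PRDX3 at 181 and the manganese superoxide dismutase SOD2 at 160. Without YL2 the mean of MT3 was 209 FPKM and that of SOD1 was 179, so their order turned. The row of MT3 has the same coordinates as that of MT1A (chr6:26353887-26411796, Sscrofa10.2), so how reads were divided between them is uncertain. Of the 51 rows, 46 reached 1 FPKM in at least 2 libraries and were tested. The 5 that did not were both AOX1 rows, 1 KEAP1 row, SESN2 and SESN3.

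**Figure D1:**
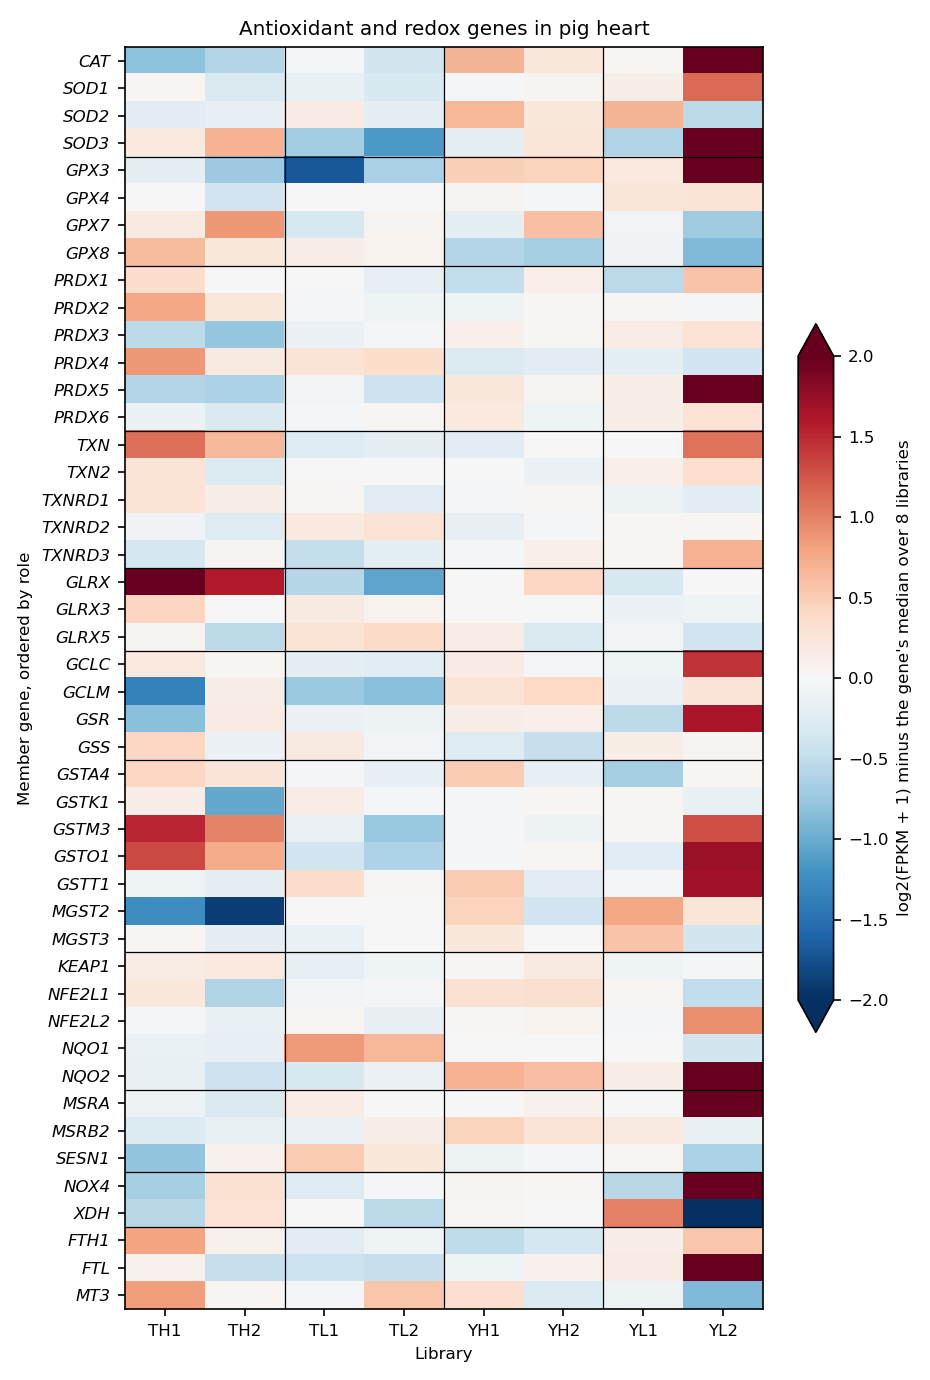
Level of the 46 tested genes (rows, grouped by role) in the 8 libraries (columns), as log2(FPKM + 1) minus the median of the gene over the libraries, with red above and blue below. GLRX was highest in both TH libraries, and the strongest red cells outside that row are in YL2.

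No member met the threshold of an adjusted p under 0.01 with a log2 fold change over 1 in size in any comparison by limma with Benjamini-Hochberg adjustment. Across all 11913 genes tested, the shares that met it were 0.0336% in TH vs. YH, 0.00839% in TL vs. YL, 0.0504% in TH vs. TL, 0.0% in YH vs. YL and 0.0336% in the interaction of breed and altitude, so that the test called few genes of any kind. The members below are therefore described by their values in each library and by an unadjusted p under 0.05, and a single gene taken alone in 2 against 2 libraries cannot reach an exact two-sided permutation p below 0.333. Fold changes are on the log2(FPKM + 1) scale, which understates the difference of genes at low level.

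The first question was how the breeds differ in the highland. In TH vs. YH, 5 members were higher at an unadjusted p under 0.05 and 3 were lower, against 7.71% and 8.47% of all genes. Those higher were GLRX, GPX8, TXN, PRDX4 and GSTM3, and those lower were MGST2, PRDX3 and MSRB2. GSTM3 reached 1 FPKM only in both TH libraries and YL2, so that it entered the test through the group where it was high, and 4 were higher without it. Without YL2, which enters this comparison only through the shared variance, there were 7 higher, or 6 without GSTM3, and 7 lower (10.9% and 11.8% of all genes). The additional 2 higher were GSTO1 and FTH1, and the additional 4 lower were CAT, NQO2, PRDX5 and SOD2. Both TH libraries lay above both YH libraries for 10 members and below them for 14 (25.2% and 27.3% of all genes). They lay above all other 6 libraries for 4 members and below all other 6 for 7 (10.1% and 8.06% of all genes). The median log2 fold change of the 46 in TH vs. YH was -0.15, against -0.03 over all genes. Without TH2 these medians were 0.01 and -0.02. At an adjusted p under 0.05 there was no member, with YL2 (0.26% of all genes) or without it (1.32%). Without TH1, where TH2 alone stands for TH and its spread is assumed to be that of the other groups, 1 member was higher at an unadjusted p under 0.05 and 4 were lower (4.67% and 4.5% of all genes), and none had an adjusted p under 0.05 (0.0336% of all genes). The one higher was GLRX (1.38), and those lower were MGST2 (-1.91), GSTK1 (-1.03), NFE2L1 (-0.92) and PRDX3 (-0.84). GPX8 (0.86), TXN (0.74), PRDX4 (0.43) and MSRB2 (-0.51) kept their direction in that fit but were not under 0.05. Scaling each library to its FPKM sum moved the median of all genes in TH vs. YH from -0.03 to -0.50. After that median was subtracted, the log2 fold change under this scaling was 1.18 for GLRX, 0.89 for GSTM3, 0.62 for GPX8, 0.50 for TXN, 0.32 for PRDX4, -1.78 for MGST2, -1.16 for PRDX3 and -0.74 for MSRB2. In TH vs. TL the median of all genes moved from -0.02 to -0.27, and the values less that median were 2.22 for GLRX, 1.1 for GSTO1, 0.89 for GSTM3, 0.72 for TXN, -1.65 for MGST2, -0.91 for PRDX3 and -0.90 for NQO1.

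GLRX (ENSSSCG00000014167, chr2:106310502-106321615, Sscrofa10.2) encodes glutaredoxin 1, the cytosolic enzyme that removes glutathione from oxidized protein thiols. It was at 140 and 92.7 FPKM in TH, at 20 and 13.9 in TL, at 30.4 and 40.3 in YH and at 24.3 and 29.8 in YL. Both TH libraries stood above the other 6, which did not exceed 40.3 FPKM. The log2 fold change was 1.67 (SE 0.31) in TH vs. YH, with an adjusted p of 0.0959 by limma (0.0462 to 0.920 over the alternatives). In TH vs. TL it was 2.70 (SE 0.31), with an adjusted p of 0.0513 (0.0354 to 0.732 over the alternatives). Read numbers were 1193 and 701 in TH and 149 to 401 in the other libraries. The 2 other glutaredoxins measured did not share this pattern. GLRX3, a cytosolic iron-sulfur protein, ranged only from 42.4 to 62.8 FPKM, and GLRX5, which serves iron-sulfur cluster assembly in mitochondria, was at 109 and 72.3 FPKM in TH, at 127 and 138 in TL, at 117 and 86.0 in YH and at 102 and 80.5 in YL, with TH below TL without overlap, TH1 between the YH libraries and TH2 the lowest of the 8.

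TXN (chr1:282027081-282076574), the cytosolic thioredoxin that reduces peroxiredoxins, was at 191 and 139 FPKM in TH, at 74.0 and 78.1 in TL, at 76.0 and 89.3 in YH and at 87.8 and 190 in YL. TH was thus above TL and YH without overlap, while YL2 reached the level of TH1 and YL1 did not. Its log2 fold change was 0.97 (SE 0.38) in TH vs. YH and 1.09 (SE 0.38) in TH vs. TL, with adjusted p of 0.289 and 0.356. TXNRD1, the cytosolic reductase of thioredoxin, was at 33.5 and 30.0 FPKM in TH and between 23.3 and 27.8 FPKM in the other 6 libraries. Its difference was small, with a log2 fold change of 0.20 in TH vs. YH and 0.30 in TH vs. TL, or 0.18 without TL2. TXN2, the thioredoxin of mitochondria, was at 60.2 and 40.6 FPKM in TH, at 49.1 and 49.7 in TL, at 49.2 and 45.6 in YH and at 52.9 and 62.5 in YL, and TH overlapped TL and YH. The mitochondrial reductase TXNRD2 was at 8.71 and 7.50 FPKM in TH against 10.6 and 11.4 FPKM in TL.

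Among the glutathione transferases, which join glutathione to electrophiles, members lay on both sides. GSTO1 (chr14:125175434-125185836), an omega class enzyme with glutaredoxin-like activity, was at 49.8 and 32.9 FPKM in TH, at 14.5 and 12.3 in TL, at 18.7 and 19.9 in YH and at 16.4 and 66.1 in YL. Its pattern over the libraries was like that of TXN, with TH and YL2 high and the other 5 libraries low. The log2 fold change was 1.53 (SE 0.58) in TH vs. TL (adjusted p = 0.39) and 1.04 (SE 0.58) in TH vs. YH (adjusted p = 0.422). GSTM3, a mu class enzyme, was at 4.31 and 2.68 FPKM in TH, at 0.691 and 0.101 in TL, at 0.813 and 0.727 in YH and at 0.892 and 3.55 in YL. These levels rested on only 2 to 85 reads, and the gene passed the filter on low values through TH and YL2 alone. As a description, its log2 fold change was 1.32 in TH vs. YH and 1.70 in TH vs. TL.

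MGST2 (GL893896.1, 889 to 6955), a membrane-bound glutathione transferase and peroxidase, was the member with the lowest log2 fold change in both comparisons of TH. It was at 18.3 and 11.4 FPKM in TH, at 44.5 and 44.6 in TL, at 61.2 and 33.8 in YH and at 77.1 and 52.6 in YL. Both TH libraries were below all 6 others. The log2 fold change was -1.59 (SE 0.37) in TH vs. YH (adjusted p = 0.141, 0.0747 to 0.656 over the alternatives) and -1.56 (SE 0.37) in TH vs. TL (adjusted p = 0.237). Its reads numbered 26 to 227 per library. MGST3, the abundant member of this family, was at 242 and 206 FPKM in TH, at 216 and 237 in TL, at 274 and 236 in YH and at 350 and 184 in YL, with TH within the range of the others. GSTK1, a kappa class transferase of mitochondria and peroxisomes, was at 50.3 and 21.9 FPKM in TH and at 41.1 to 50.8 FPKM in the other 6, so that TH2 alone was low.

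**Figure D2:**
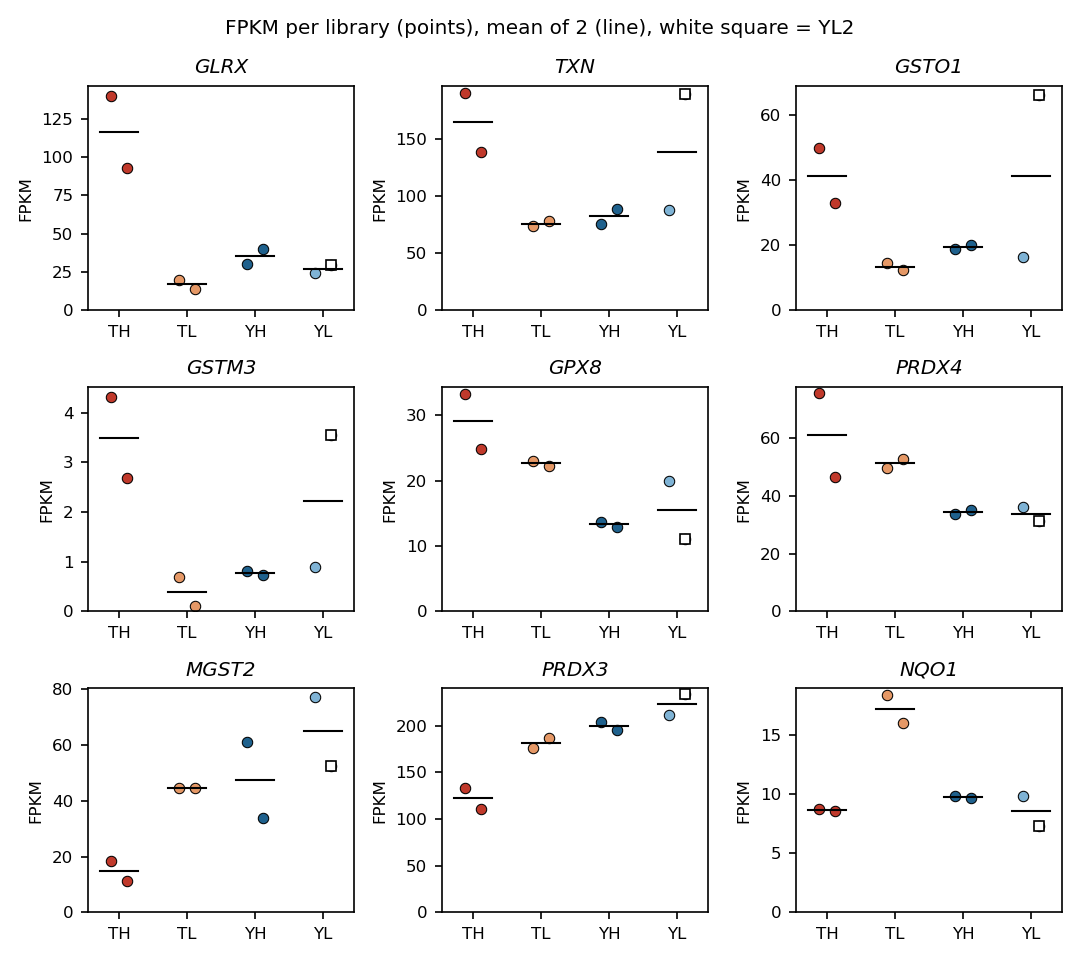
FPKM of 9 members in each library (points), with the mean of the 2 libraries of each group (line) and YL2 as a white square, on linear axes that start at 0. GLRX and GPX8 were higher and MGST2 and PRDX3 lower in both TH libraries than in all others, TXN, GSTO1 and GSTM3 were also high in YL2, and NQO1 was highest in TL.

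The 6 peroxiredoxins, which remove hydrogen peroxide through a cysteine, differed among themselves. PRDX3 (chr14:140603476-140615527), the peroxiredoxin of mitochondria, was at 133 and 111 FPKM in TH, at 176 and 187 in TL, at 204 and 195 in YH and at 211 and 234 in YL. Both TH libraries were the lowest of the 8. Its log2 fold change was -0.71 (SE 0.22) in TH vs. YH (adjusted p = 0.219) and -0.58 (SE 0.22) in TH vs. TL (adjusted p = 0.40). PRDX5, which acts in mitochondria and peroxisomes, was at 9.88 and 9.56 FPKM in TH, 11.3 to 18.1 FPKM in TL, YH and YL1, and 75.8 FPKM in YL2. PRDX6 was also lowest in TH, at 52.9 and 46.6 FPKM against 54.0 to 70.4 FPKM elsewhere, a small difference.

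PRDX4 (chrX:21167783-21189764), the peroxiredoxin of the endoplasmic reticulum, was at 75.3 and 46.5 FPKM in TH, at 49.6 and 52.7 in TL, at 33.7 and 34.9 in YH and at 36.2 and 31.2 in YL. All 4 Tibetan libraries were above all 4 Yorkshire libraries, while TH and TL overlapped. The log2 fold change was 0.77 (SE 0.27) in TH vs. YH (adjusted p = 0.246) and 0.59 in TL vs. YL, or 0.49 without YL2. In TH vs. YH the value was 0.43 without TH1 and 1.11 without TH2. PRDX2, also abundant in red blood cells, was at 424 and 289 FPKM in TH, at 240 and 233 in TL, at 232 and 250 in YH and at 252 and 244 in YL, with both TH libraries above the rest. The erythroid markers HBB and HBA were high in the same libraries, HBB at 1710 and 876 FPKM in TH against 290 to 649 FPKM elsewhere, and their part in PRDX2 was not tested.

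GPX8 (chr16:36457453-36463071), a glutathione peroxidase homolog in the membrane of the endoplasmic reticulum, followed the breeds in the same way. It was at 33.2 and 24.9 FPKM in TH, at 23.0 and 22.3 in TL, at 13.7 and 12.9 in YH and at 20 and 11.0 in YL. All 4 Tibetan libraries were above all 4 Yorkshire libraries. Its log2 fold change was 1.06 (SE 0.30) in TH vs. YH, with an adjusted p of 0.189 (0.0624 to 1.0 over the alternatives). GPX7, its relative in the same compartment, was low at 1.35 to 5.97 FPKM and its Tibetan and Yorkshire libraries overlapped. In TL vs. YL the log2 fold change of GPX8 was 0.57, or 0.17 without YL2, and that of GPX7 turned from 0.25 to -0.07. GPX4, which reduces lipid hydroperoxides in membranes, was at 84.3 and 65.0 FPKM in TH, at 84.6 and 85.3 in TL, at 88.3 and 82.5 in YH and at 101 and 103 in YL, so that YL was slightly above the rest.

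MSRB2, a mitochondrial methionine sulfoxide reductase, was at 12.1 and 13.3 FPKM in TH, at 13.7 and 16.2 in TL, at 20.7 and 18.1 in YH and at 17.0 and 13.4 in YL. TH was lowest, and its log2 fold change against YH was -0.57 (SE 0.22, adjusted p = 0.274). SOD2, the dismutase of the matrix, was at 126 and 130 FPKM in TH, at 163 and 128 in TL, at 231 and 171 in YH and at 233 and 99.5 in YL, so that TH lay below YH but overlapped TL.

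CAT (chr2:28860745-28900838), the peroxisomal catalase, was at 35.7 and 42.3 FPKM in TH, at 61.9 and 49.3 in TL, at 103 and 74.9 in YH and at 65.6 and 685 in YL. Both TH libraries were the lowest, and YL2 was 6.67 times the highest of the others. The log2 fold change in TH vs. YH was -1.15 (SE 0.94), with an adjusted p of 0.569 (0.0727 to 1.0 over the alternatives). Leaving out YL2 left the difference at -1.15 and brought the adjusted p to 0.0727. SOD1, the cytosolic dismutase, was at 193 and 153 FPKM in TH, at 170 and 152 in TL, at 183 and 195 in YH and at 203 and 415 in YL, with YL2 alone outside the range of 152 to 203 FPKM. SOD3, the extracellular dismutase, was at 13.4 and 19.5 FPKM in TH, at 6.85 and 4.68 in TL, at 10.1 and 13.9 in YH and at 7.35 and 75.1 in YL, so that TH lay above TL but overlapped YH. Its log2 fold change in TH vs. TL was 1.36 (SE 0.91, adjusted p = 0.62 by limma), and without YL2 the SE was 0.28 and the adjusted p 0.105.

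Ferritin stores iron as a shell of heavy and light chains. FTH1 was at 3370 and 2060 FPKM in TH, at 1670 and 1840 in TL, at 1370 and 1530 in YH and at 2130 and 2860 in YL. TH was above TL and YH without overlap but not above YL, and its log2 fold change against YH was 0.86 (SE 0.37, adjusted p = 0.316), or 0.51 without TH1. FTL was at 580 and 398 FPKM in TH, at 407 and 397 in TL, at 519 and 579 in YH and at 615 and 4400 in YL, so that TH did not stand out. MT3 was at 316 and 182 FPKM in TH, at 172 and 260 in TL, at 223 and 146 in YH and at 165 and 95.2 in YL, and TH overlapped TL and YH.

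**Figure D3:**
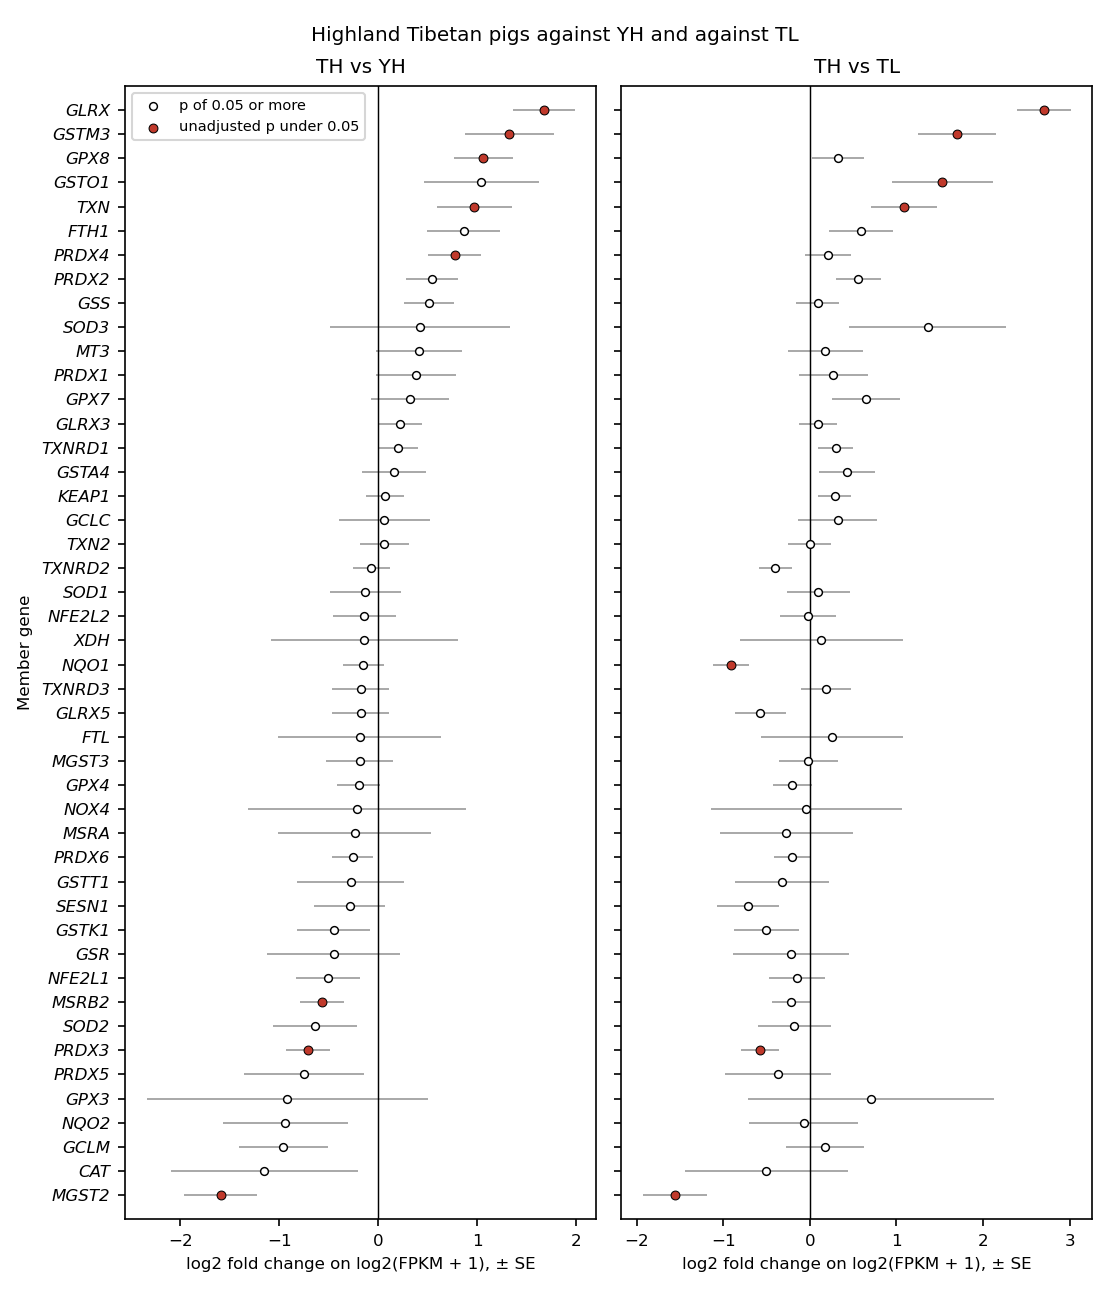
Log2 fold change on log2(FPKM + 1) with its standard error for the 46 tested members in TH vs. YH (left) and TH vs. TL (right), in the order of TH vs. YH, with filled points at an unadjusted p under 0.05. GLRX stands highest in both, at 1.67 and 2.70, and MGST2 lowest in both, at -1.59 and -1.56, and both comparisons use the same TH libraries.

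The second question was how Tibetan pigs of the highland and the lowland differ. In TH vs. TL, 4 members were higher at an unadjusted p under 0.05, namely GLRX, GSTO1, TXN and GSTM3 (3 without GSTM3), and 3 were lower, namely MGST2, NQO1 and PRDX3, against 5.81% and 5.53% of all genes. TH lay above TL without overlap for 14 members and below for 13 (24.0% and 24.5% of all genes). The median log2 fold change was 0.09 over the members and -0.02 over all genes, and that of the members was -0.10 without TH1. No member had an adjusted p under 0.05 (0.101% of all genes). Without YL2, 5 members were higher at an unadjusted p under 0.05, SOD3 being the one added (4 without GSTM3), and 3 lower (8.55% and 8.58% of all genes), and GLRX alone had an adjusted p under 0.05 (0.0367 by limma), against 0.361% of all genes. Without TH1, 2 were higher and 6 lower at that level (4.58% and 3.76% of all genes), with none at an adjusted p under 0.05 (0.0672%). Those higher were GLRX (2.40) and GCLM (0.90), those lower were MGST2 (-1.88), GSTK1 (-1.08), NQO1 (-0.92), GLRX5 (-0.86), PRDX3 (-0.70) and TXNRD2 (-0.49), and GSTO1 (1.24) and TXN (0.86) were no longer under 0.05. TH vs. YH and TH vs. TL share the TH libraries, so that members higher or lower in both are not independent observations.

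NQO1 (chr6:16238852-16248810), a quinone reductase and a standard target of NRF2, was set apart in TL. It was at 8.73 and 8.57 FPKM in TH, at 18.4 and 16.0 in TL, at 9.81 and 9.64 in YH and at 9.81 and 7.29 in YL. Both TL libraries were above all 6 others, and the other 3 groups lay between 7.29 and 9.81 FPKM. Its log2 fold change was -0.91 (SE 0.21) in TH vs. TL (adjusted p = 0.221) and 0.94 (SE 0.21) in TL vs. YL (adjusted p = 0.269), or 0.75 without YL2. NFE2L2 itself was at 20.3 and 18.9 FPKM in TH, at 21.5 and 18.5 in TL, at 21.4 and 22.0 in YH and at 20.5 and 40.6 in YL, with YL2 alone outside a narrow range. NFE2L1, a related factor best known for control of proteasome genes, was at 68.4 and 38.7 FPKM in TH, at 57.0 and 57.7 in TL, at 73.6 and 74.1 in YH and at 60.6 and 41.7 in YL, so that TH was below YH. The tested KEAP1 row was at 0.783 to 1.29 FPKM in all 8 libraries. The second quinone reductase, NQO2, did not follow NQO1, and was at 12.2 and 11.6 FPKM in YH against 5.10 to 7.89 FPKM in the other libraries outside YL2.

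The enzymes of glutathione synthesis and recycling were 4 of the tested members. GCLC, the catalytic subunit that sets the rate of glutathione synthesis, was at 1.99 to 3.02 FPKM outside YL2, and GSS, which completes the tripeptide, was at 17.5 and 11.7 FPKM in TH, at 14.6 and 12.3 in TL, at 10.6 and 9.0 in YH and at 14.1 and 13.4 in YL. The 2 TH libraries disagreed for GCLM, the modifier subunit, at 0.819 and 4.01 FPKM. They also disagreed for GSR, the glutathione reductase, at 1.58 and 4.14 FPKM, against 2.18 to 4.04 FPKM in TL, YH and YL1 and 13.2 FPKM in YL2. SESN1, a p53 target that limits growth signaling under stress, was at 11.5 and 21.9 FPKM in TH, at 29.8 and 23.9 in TL, at 19.2 and 20.1 in YH and at 21.1 and 13.0 in YL, and again TH1 was well under TH2. Over the 46 members, the ratio of the 2 libraries of a group, on FPKM + 1, had a median of 1.37 in TH, 1.12 in TL, 1.09 in YH and 1.61 in YL.

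The third question, how the breeds differ in the lowland, depended on YL2. In TL vs. YL, NQO1 was the single member higher at an unadjusted p under 0.05 and GPX3, FTL, GSTM3 and TXNRD3 were lower, against 5.9% and 3.04% of all genes. TXNRD3, a thioredoxin and glutathione reductase, was at 1.38 and 1.90 FPKM in TL and at 2.39 and 4.39 FPKM in YL (log2 fold change -0.70, SE 0.29, adjusted p = 0.552), and its log2 fold change was -0.37 without YL2. GSTM3 went from a log2 fold change of -1.11 (SE 0.45, adjusted p = 0.532) to -0.47 without YL2. TL lay below YL without overlap for 21 members and above for 8, against 17.8% and 23.8% of all genes. With YL1 alone, both TL libraries were below it for 26 members and above it for 13, against 35.5% and 45.7% of all genes. The median log2 fold change of the members was -0.24, or -0.10 without YL2, against 0.02 and 0.05 over all genes. Leaving out YL2 leaves YL1 alone in its group, and every test against YL without YL2 then assumes that YL varies like the other 3 groups. In that fit, the members at an unadjusted p under 0.05 were NQO1, which was higher, and GPX3 and XDH, which were lower (5.83% and 3.89% of all genes), and no member had an adjusted p under 0.05 (0.0672% of all genes). XDH turned direction, with a log2 fold change of 0.38 with both YL libraries and -1.26 without YL2.

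GPX3 (chr16:78282293-78290916) was at 162 and 113 FPKM in TH, at 56.9 and 119 in TL, at 261 and 254 in YH and at 215 in YL1, but at 7100 FPKM in YL2. The kidney is a main source of this secreted enzyme, and the kidney markers were high in the same library, although their part in GPX3 and the other members high in YL2 was not tested. The log2 fold change in TL vs. YL was -3.89 (SE 1.42, adjusted p = 0.478) with both YL libraries and -1.37 (adjusted p = 0.428) with YL1 alone. Under scaling to the FPKM sum the log2 fold change with both was -4.20, the adjusted p by limma was 2.44e-06 and GPX3 passed the threshold. The other alternatives with all 8 libraries gave an adjusted p of 0.400 to 0.612. With YL at 215 and 7100 FPKM, the small value does not rest on agreement between the 2 YL libraries. In the 7 libraries other than YL2, all 4 Tibetan libraries were below all 3 Yorkshire libraries. FTL went from a log2 fold change of -2.03 (SE 0.82, adjusted p = 0.528) to -0.61 (adjusted p = 0.638) when YL2 was left out.

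The last pair, YH vs. YL, asked what altitude does in the Yorkshire breed. No member had an unadjusted p under 0.05 (4.39% of all genes were higher at that level and 1.58% lower). YH lay above YL without overlap for 7 members and below for 9 (21.9% and 14.4% of all genes), and the median log2 fold change of -0.18 became 0.01 without YL2. With YL1 alone, both YH libraries were above it for 18 members and below it for 18, against 43.6% and 31.4% of all genes. Without YL2, and so against the single library YL1, 1 member was higher at an unadjusted p under 0.05 and 1 was lower, against 3.41% and 2.04% of all genes. The one higher was GSTA4, which detoxifies the lipid peroxidation product hydroxynonenal, at a log2 fold change of 0.84 against 0.49 with both YL libraries, 0.14 without YL1 and 0.15 without YH1. The one lower was XDH, at -0.99 against 0.65 with both YL libraries and 2.28 without YL1.

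In the test of whether the altitude difference differs between breeds, (TH - TL) - (YH - YL), 5 members were above 0 at an unadjusted p under 0.05 (4 without GSTM3) and 1 was below (3.78% and 7.16% of all genes). GLRX had a log2 difference of 2.33 (SE 0.43, adjusted p = 0.247 by limma), or 2.19 without YL2 (adjusted p = 0.221). The others above 0 were GSTM3 (2.43), GSTO1 (2.29), TXN (1.73) and FTH1 (1.36), and NQO1 was below (-1.09). Of these, GSTM3 became 1.79, GSTO1 1.31, TXN 1.18, FTH1 1.14 and NQO1 -0.90 without YL2. Without YL2 there were 5 above 0 (4 without GSTM3) and 1 below at that level (4.89% and 7.95% of all genes), with GPX8 in the place of FTH1. The value of GPX8 was 0.49 with all libraries, 0.89 without YL2, 0.08 without YL1 and 0.28 without TH1. Without TH1, 2 were above 0 at that level, GLRX (2.04) and GSTM3 (2.16), and 5 were below, namely GSTK1, NQO1, NFE2L1, GLRX5 and MGST2, at -1.40 to -1.01 (2.58% and 5.43% of all genes), with none at an adjusted p under 0.05 (0.0336%). Of the 2 above 0 without TH1, GSTM3 reached 1 FPKM only in both TH libraries and YL2, and GLRX alone remained without it. No member had an adjusted p under 0.05 with YL2 (0.042% of all genes) or without YL2 (0.0923%).

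YL2 was more than 2 times above every other library for 12 of the 46 tested members (26.1%), against 6.48% of all genes, while each of the other 7 libraries stood so for 0 members, against 0.0755 to 0.772% of all genes. After GPX3 at 27.2 times, the ratio of YL2 to the highest of the other libraries was 10.9 for NOX4, 7.21 for MSRA, 7.16 for FTL, 6.67 for CAT and 4.19 for PRDX5, followed by SOD3, NQO2, GSR, GSTT1, GCLC and SOD1 at 3.85 to 2.04. NOX4, an oxidase that makes hydrogen peroxide and was first described in kidney, was at 0.754 and 2.44 FPKM in TH, at 1.33 and 1.74 in TL, at 1.89 and 1.81 in YH and at 0.898 and 26.7 in YL. MSRA, which repairs oxidized methionine, was at 3.66 and 3.09 FPKM in TH, at 4.56 and 3.98 in TL, at 4.01 and 4.34 in YH and at 4.01 and 32.8 in YL. For both, YL1 was in the range of the other groups. Among the untested members, 1 AOX1 row (7.01 FPKM against at most 0.343) and SESN2 (8.83 against at most 0.773) also reached 1 FPKM in YL2 only. XDH, the xanthine dehydrogenase that forms urate and can release superoxide, was the reverse, at 31.5 FPKM in YL1, 2.37 FPKM in YL2 and 10.1 to 18.8 FPKM in the other 6, so that the YL libraries were the highest and the lowest of the 8.

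**Figure D4:**
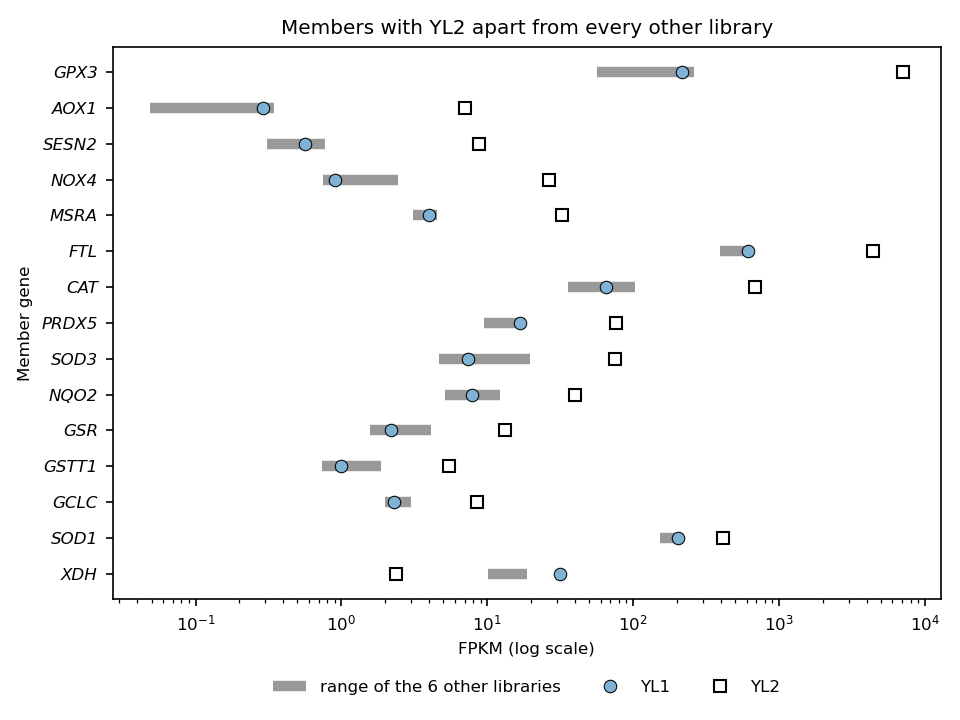
FPKM on a log scale of the members for which YL2 (white square) was more than 2 times above, or for XDH under 1/2 of, every other library, with YL1 (circle) and the range of the 6 libraries of TH, TL and YH (grey bar). YL2 lies apart by up to 27.2 times for GPX3, and YL1 lies within or near the bar for most.

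Outside the members, 103 further genes of redox metabolism were listed, of which 82 rows were found and 68 tested. The counts that follow leave out UCP3 and PTGES where these entered the test only through the group where they were high. In TH vs. YH, 5 were higher and 4 lower at an unadjusted p under 0.05 (7.71% and 8.47% of all genes), and 12 and 8 without YL2 (10.9% and 11.8%). In TH vs. TL there were 5 and 5 (5.81% and 5.53%), and 9 and 8 without YL2 (8.55% and 8.58%). In TL vs. YL there were 2 and 6 (5.9% and 3.04%), and 5 and 6 without YL2 (5.83% and 3.89%). In YH vs. YL there were 1 and 1 (4.39% and 1.58%), and 2 and 2 without YL2 (3.41% and 2.04%). YL2 was more than 2 times above every other library for 16 of the 68, against 6.48% of all genes. UCP3, an uncoupling protein of the inner mitochondrial membrane, was at 0.264 and 0.0831 FPKM in TH, at 0.0477 and 0.132 in TL, at 3.08 and 2.63 in YH and at 1.09 and 0.682 in YL. It was highest in YH and low in both Tibetan groups, and since it entered the test only through both YH libraries and YL1 these levels are a description. The metallothionein MT2A, which binds zinc and copper, was at 116 and 50.1 FPKM in TH, at 5.78 and 6.12 in TL, at 15.2 and 31.8 in YH and at 18.3 and 360 in YL. Its log2 fold change in TH vs. TL was 3.48 (SE 1.23, adjusted p = 0.358 by limma), with an SE of 0.48 and an adjusted p of 0.0606 without YL2. MT1A, the metallothionein row that shares its coordinates with MT3, was at 20.6 and 12.4 FPKM in TH, at 0 and 0.198 in TL, at 2.25 and 7.23 in YH and at 4.68 and 104 in YL. TH was above TL and YH without overlap, with a log2 fold change of 3.96 (SE 1.22, adjusted p = 0.314) in TH vs. TL, and an adjusted p of 0.041 without YL2. NNT, the transhydrogenase that supplies mitochondrial NADPH to the thioredoxin and glutathione systems, was at 49.5 and 58.5 FPKM in TH, at 128 and 119 in TL, at 127 and 90.0 in YH and at 94.3 and 65.1 in YL. Both TH libraries were the lowest, and the log2 fold change in TH vs. TL was -1.18 (SE 0.28, adjusted p = 0.244), with an adjusted p of 0.0999 without YL2.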

How the data were processed

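RNA of 8 heart libraries (4 groups of 2, pools of 4 pigs) was sequenced. Per the study's methods the authors aligned reads to Sscrofa10.2 with TopHat2 2.0.9 and deposited FPKM computed with Cufflinks. The deposited table also holds a signal per gene, the authors' read count times 1 factor per library, of which at least 99.7% of low values (up to 50 steps) were whole multiples of 1 step within 0.02. It was used for depth, read numbers and 1 alternative. Another 8 columns hold the authors' group means and ratios and were not used. The handling of reads that map to several places is not given in the sources used here.

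Here log2(FPKM + 1) of all 8 libraries was fitted with limma 3.58.1 (R 4.3.3), 1 mean per group and variances that follow the mean, for 11913 genes that reached 1 FPKM in 2 or more libraries. P-values were Benjamini-Hochberg adjusted over all of them. Calls needed an adjusted p below 0.01 together with an absolute log2 fold change above 1. The fit was tested on simulated normal values, where 200 genes were raised by 3 on the log2 scale in TH and 76.5% of them were called. Member changes in TH vs. YH were smaller (-1.59 to 1.67), so the power for them was not measured. Library values were given for the 2 most abundant members of a role, the 5 highest and 5 lowest per comparison among those at an unadjusted p under 0.05 without overlap, and members with YL2 apart. Others named in the text were added after their values were seen. Members and lists were chosen with earlier results of these data known. Nothing states how pigs were assigned to pools, so p-values measure the spread between pools. Alternatives were the pseudocount, filter, scaling, trend, threshold, replicate block, libraries in the fit and each library left out. Counts at an unadjusted p without TH1 were added after the data were seen.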

Additional observations from a re-analysis of the deposited data

How the results depend on the processing

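The count of members called was 0 in every comparison as reported, and of the alternative values for counts and medians 154 stayed and 13 moved. Leaving out single libraries gave 0 to 8 called in TL vs. YL, 0 to 6 in YH vs. YL and 0 to 4 in the interaction, all from the fit without YL1, which leaves YL2 alone. In that fit the spread of YL comes from the other 3 groups, and it called GPX3, FTL, CAT, MSRA, NOX4 and PRDX5 in both TL vs. YL and YH vs. YL. Scaling to the FPKM sum called 1 member in TL vs. YL, GPX3. The share of all genes called under these alternatives is not given here, so these counts do not set the members apart from other genes. YL2 was more than 2 times above every other library for 26.1% of the members and 6.48% of all genes.

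The median log2 fold change of the members ranged from -0.15 to 0.01 in TH vs. YH (0.01 without TH2), -0.31 to -0.10 in TL vs. YL, -0.10 to 0.17 in TH vs. TL (-0.10 without TH1) and -0.23 to 0.01 in YH vs. YL (0.01 without YL2) when single libraries were left out. Scaled to the FPKM sum it was -0.71 in TH vs. YH, -0.56 in TL vs. YL and -0.40 in TH vs. TL, where the median of all genes also moved to -0.50, -0.23 and -0.27. With the nuclear FPKM sum it was -0.10 in TH vs. TL, where the median of all genes was -0.17. On log2(signal + 1), an alternative chosen after seeing the data, it was -0.49 in TL vs. YL and -0.36 in YH vs. YL. Scaled to the FPKM sum, TXN (-0.0047) and PRDX4 (-0.18) were below 0 in TH vs. YH, but above the median of all genes by 0.50 and 0.32. Mitochondrially encoded genes made up 57.7 to 87.6% of the FPKM sum of a library, and the cause of these shifts was not tested. The replicate numbers did not pair the libraries (correlations of deviations -0.08 to 0.12), and the replicate block left 0 members called and the medians at -0.15, -0.24, 0.09 and -0.18. edgeR on reads was not run, since the signal could not be turned into whole reads for every gene.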
